A study of Mus musculus with 6 samples.

Results

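The comparison described here sets tumor-derived organoids without p53 against organoids with wild-type p53. Organoids are 3-dimensional cultures of epithelial cells grown in gel, and these were derived from small intestinal tumors of C57BL/6 mice aged 15 to 20 weeks. All carried the ApcΔ716 truncation, which was therefore shared by both groups. The paper states that ApcΔ716 tumor cells lose the wild-type Apc allele. It shows this in tumors of another Trp53 genotype and gives no such assay for these organoids. One group was ApcΔ716 Trp53 +/+ and the other ApcΔ716 Trp53 flox/flox, in which both Trp53 alleles carry a stop cassette that had not been recombined and are functionally null. Recombination of that allele by a tamoxifen-inducible Cre under the villin promoter, which is active in gut epithelium, yields the missense protein p53 R270H, and ApcΔ716 Trp53 R270H/R270H organoids were the third group of the series. Poly(A) RNA was sequenced in 2 libraries per genotype, and 4 of the 6 libraries entered the comparison. Of 36172 genes in the table, 9681 reached at least 4 RPKM (reads scaled by transcript length and by the mapped reads of the library) in at least 1 of these 4 libraries, and the 9383 of them on autosomes are described. Of the 9383 genes, 462 reached 4 RPKM in flox/flox libraries only, 464 in +/+ libraries only and 8457 in both groups. Just inside the limit lay Tmco7, whose highest value was 4.002 RPKM, and 619 genes of the table had their highest value between 3 and 4 RPKM.

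The p53 protein is a transcription factor that is held at a low level by Mdm2, a ubiquitin ligase, and is stabilized when DNA is damaged or an oncogene is active. It binds DNA as a tetramer and switches on genes for cell cycle arrest, apoptosis, DNA repair and metabolism, among them Mdm2 itself. Apc restrains β-catenin, and its loss in the intestine starts adenomas with constant Wnt signaling. Loss of p53 is known as a later step of colorectal cancer.

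In each sentence on a gene, 2 values of a genotype are those of replicates 1 and 2, in RPKM. No value in the table was under 1 RPKM, so a gene at 1 RPKM may have been anywhere below it, and a fold against that floor is a lower bound. Differences were tested with limma on log2(RPKM + 1), and a log2 fold change (log2FC) is flox/flox minus +/+ on that scale, which understates the change of low genes. A gene was called where the Benjamini-Hochberg adjusted p was under 0.05 and both flox/flox libraries lay on the same side of both +/+ libraries. In simulated libraries with the spread of each genotype, unchanged genes made up more of the calls than the nominal rate. Nothing in the sources used here says whether the 2 libraries of a genotype came from separate mice, so the p-values measure only the spread between these libraries, which may be technical.

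By this rule 13 autosomal genes were higher and 41 lower in Trp53 flox/flox organoids. Over all 9681 genes tested, 13 were called higher (0.134%) and 46 lower (0.475%), the other 5 being on the X and Y chromosomes. Of the 54 autosomal calls, 32 reached 4 RPKM in both groups, 18 in +/+ libraries only and 4 in flox/flox libraries only. Genes that passed in 1 group only entered the test through the group where they were high, so the filter favored their difference. The called changes were large, with log2FC from 1.34 to 3.47 among the genes that rose and from -4.63 to -1.38 among those that fell. All 54 also met a rule of size without a test, under which both flox/flox libraries had to be at least 2-fold above or below both +/+ libraries. That rule was met by 1.24% of the genes tested in the higher direction and 3.35% in the lower, which was 116 and 310 of the autosomal genes. Both flox/flox libraries lay above both +/+ libraries in 31.5% of the genes tested and below them in 33.6%. The number of calls depended on which pair of libraries set the spread. Without replicate 1 or replicate 2 of +/+ the spread came from the flox/flox pair alone, and limma gave 0 calls, with 200 and 157 genes higher and 340 and 291 lower at an unadjusted p under 0.05. Without replicate 1 or replicate 2 of flox/flox it came from the +/+ pair alone, and 2150 and 3313 genes were called higher and 2194 and 3649 lower. The 54 genes kept their direction in each of these 4 fits. The call rule, which allows no overlap between the groups, fixed this in advance. A fit that also held the R270H/R270H libraries, and so took part of its estimate of the spread from them, called 459 genes higher and 680 lower.

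**Figure D1:**
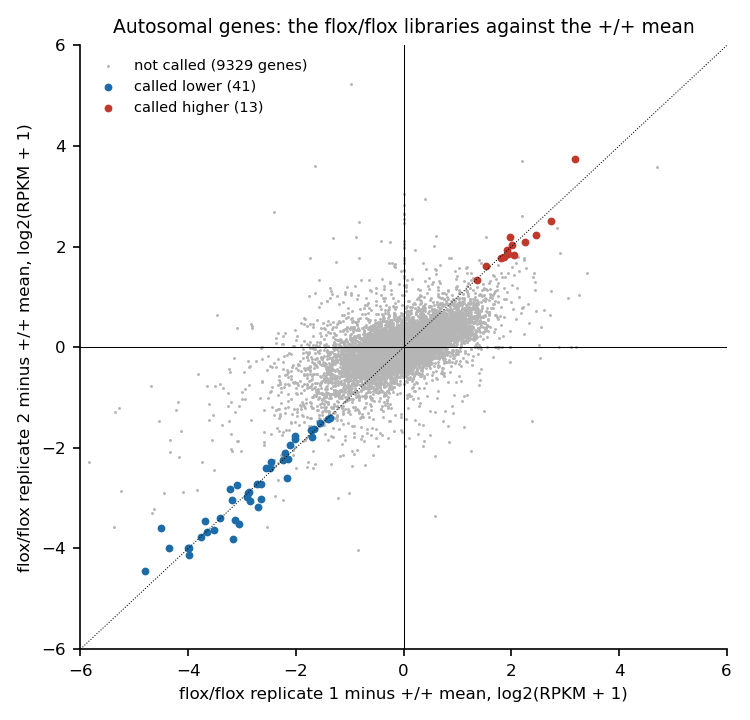
Each point is an autosomal gene, with its difference from the Trp53 +/+ mean in flox/flox replicate 1 on the x axis and in replicate 2 on the y axis, both in log2(RPKM + 1). The 41 genes called lower and the 13 called higher lie along the dotted line of equal difference, while many other genes lie far from it. The test favors genes in which the flox/flox libraries agree, so the position of the called genes is in part how they were picked.

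The flox/flox libraries differed widely from each other. The median absolute difference between the 2 libraries was 0.35 on the log2(RPKM + 1) scale for flox/flox, 0.07 for +/+ and 0.09 for R270H/R270H, and 1197 of the 9681 genes (12.4%) differed by more than 2-fold between the flox/flox libraries. In flox/flox replicate 1 the median difference from +/+ fell with transcript length, from 0.17 in the shortest of 5 equal bins of genes to -0.36 in the longest, against 0.04 and -0.03 in replicate 2. The 631 genes of chromosome 5 had a median of 0.31 in replicate 1 and 0.02 in replicate 2. After length and GC content had been fitted out of each library, a step chosen after the data were seen, 12 genes were called higher and 39 lower, and 42 of the 54 autosomal calls were among them. Centring each chromosome on its median gave 13 and 47 calls, with 51 of the 54 among them. Sex-linked transcripts moved with genotype too. Eif2s3y, on the Y chromosome, measured 66.9 and 67.8 RPKM in +/+, 1 and 1 in flox/flox and 22.9 and 25.5 in R270H/R270H. Xist, the RNA of the inactive X, measured 1 and 1 in +/+ and 11.8 and 69.0 in flox/flox. The labels do not give the sex of the donors, and sex-chromosome content and Trp53 genotype cannot be told apart in this comparison.

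**Figure D2:**
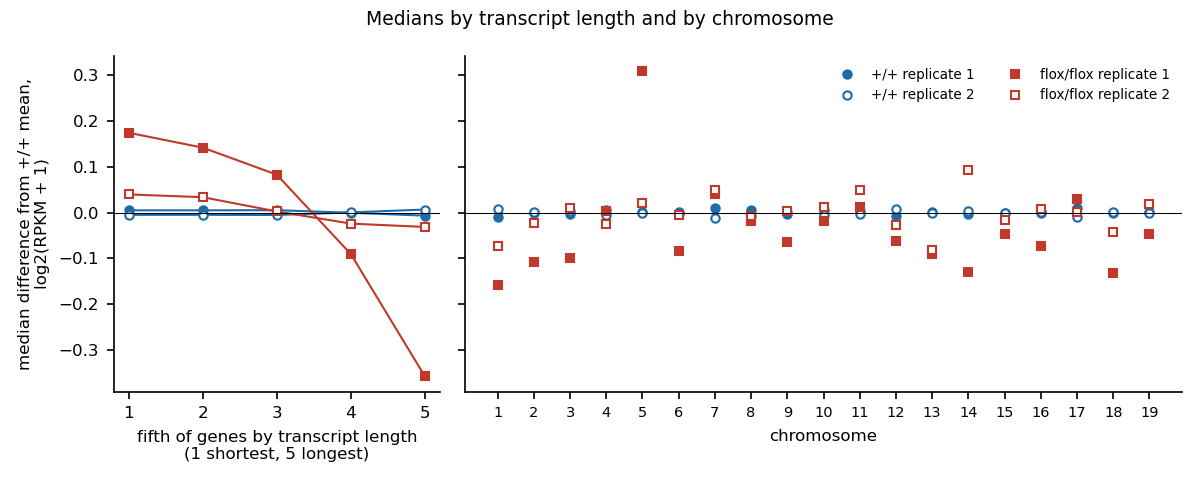
The y axis gives the median difference of each library from the Trp53 +/+ mean in log2(RPKM + 1), over autosomal genes in 5 bins of transcript length (left) and by chromosome (right). Flox/flox replicate 1 falls from 0.17 to -0.36 across length and stands at 0.31 on chromosome 5, and replicate 2 stays between -0.08 and 0.09.

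The libraries were epithelial by their markers. All 10 gut epithelial markers were tested, and they summed to 3131 and 3055 RPKM in +/+ and 4957 and 4611 in flox/flox. Of 10 fibroblast and muscle markers only Acta2 was tested, at the floor in 3 of the 4 libraries and at 11.5 RPKM in flox/flox replicate 2, and the defining Col1a2, Col3a1 and Lum stood at the floor in all 4. Of 8 immune markers only Cd68 was tested, at 10.2 and 9.87 RPKM in +/+ and 2.06 and 11.1 in flox/flox. The other 7, including Ptprc, were at the floor throughout. Of 5 endothelial markers Cdh5 and Tek were tested, and Pecam1, Kdr and Emcn were at the floor. The 5 summed to 15.9 and 16.3 RPKM in +/+ and to 5.0 and 27.7 in flox/flox. In bulk RNA of organoids, fewer cells of a type and less RNA per cell cannot be told apart.

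Trp53 (chromosome 11, 69580348 to 69591873, GRCm38) measured 75.9 and 74.3 RPKM in +/+, 1.73 and 2.48 in flox/flox and 72.8 and 82.7 in R270H/R270H. Both flox/flox libraries were far below the other 4, which overlapped. The fall was 35.7-fold between the means of flox/flox and +/+, with a log2FC of -4.63 (s.e. 0.17, adjusted p=0.0243), the most negative of all autosomal genes called. The transcript remained detectable in both flox/flox libraries. Among 12 other genes tested within 200 kb, 0 were called, 5 lay higher in both flox/flox libraries and 1, Zbtb4, lay lower, at 6.87 and 6.88 RPKM in +/+ against 1.87 and 3.95. Over all genes tested 31.5% lay higher and 33.6% lower. Wrap53, whose start lies next to that of Trp53 on the other strand and whose product brings telomerase to Cajal bodies, measured 10.3 and 11.1 RPKM in +/+ and 18.4 and 14.9 in flox/flox (adjusted p=0.142).

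Genes known as p53 targets or partners were grouped in 5 lists by role, with 62 autosomal genes besides Trp53, of which 54 were tested. Of these 54, 8 fell and 0 rose, against 0.475% and 0.134% of all genes tested. Both flox/flox libraries were below both +/+ libraries for 40 (74.1%, against 33.6% of all genes tested) and above for 5, and the 2-fold rule was met by 20 in the lower direction and by 1, Cdkn2a, in the higher. Over all genes tested 3.35% met that rule in the lower direction and 1.24% in the higher. The median log2FC was -0.92, against -0.02 for all autosomal genes tested. The lists were written with results of these data known, so the counts are a description.

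p53 binds a pair of 10-base copies of its consensus, and the promoters of the lists were searched for single copies and for the pair. RefSeq promoter windows, from 250 bases before to 50 after a start site, were at hand for 47 of the genes. At least 1 match to the p53 consensus decamer on either strand was found in 17 of their 68 windows (25%), against 8.36% of all 32851 windows of the same length. The windows of genes called lower held it in 6 of 30 (20%) and those of genes called higher in 1 of 16 (6.25%). A pair of decamers with at most 13 bases between them was found in 1 of the 68 windows (1.47%), that of Cdkn1a. Of all windows 0.0731% held such a pair. It was found in 0 of the 30 windows of genes called lower and 0 of the 16 of genes called higher. The 250 bases before the start are printed for Cdkn1a, which holds the letters CATGNNNNNNCATG (capitals, 48 bases before the start, overlapping a decamer match; in 0.712% of all windows), and for Ccng1 and Ddit4l, 2 genes that fell, with the decamer match in capitals (185 and 90 bases before the start). These were at chr17:29090729-29090978 (plus strand), chr11:40755287-40755536 (minus strand) and chr3:137623422-137623671 (plus strand) of GRCm38.p6, written 5′ to 3′ along the gene.
Cdkn1a: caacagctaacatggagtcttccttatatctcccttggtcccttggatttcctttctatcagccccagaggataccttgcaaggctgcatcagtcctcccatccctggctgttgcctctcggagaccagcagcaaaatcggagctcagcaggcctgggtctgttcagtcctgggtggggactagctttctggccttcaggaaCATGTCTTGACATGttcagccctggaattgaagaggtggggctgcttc
Ccng1: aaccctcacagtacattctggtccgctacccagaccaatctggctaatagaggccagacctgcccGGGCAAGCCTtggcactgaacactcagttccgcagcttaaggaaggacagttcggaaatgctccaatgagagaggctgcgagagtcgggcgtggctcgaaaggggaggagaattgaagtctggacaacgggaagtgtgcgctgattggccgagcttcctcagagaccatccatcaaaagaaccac
Ddit4l: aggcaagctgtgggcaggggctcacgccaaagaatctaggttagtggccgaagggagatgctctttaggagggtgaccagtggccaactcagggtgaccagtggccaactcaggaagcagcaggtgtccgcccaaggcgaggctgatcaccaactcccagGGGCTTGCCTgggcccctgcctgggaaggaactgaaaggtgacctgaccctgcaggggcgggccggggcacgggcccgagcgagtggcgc
The capitals of Cdkn1a do not mark the pair counted above, whose decamers are GGACTAGCTT and GAACATGTCT, and they overlap only the second. A match describes letters only and does not show that p53 bound there.

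Among genes that control p53, Ccng1 (cyclin G1, a target that recruits phosphatase 2A to Mdm2) measured 190 and 213 RPKM in +/+, 25.9 and 24.6 in flox/flox and 18.2 and 18.2 in R270H/R270H. Both p53 mutant genotypes were far below +/+, and the fall in flox/flox was 7.97-fold (log2FC -2.94, s.e. 0.13, adjusted p=0.0243). Mdm2 measured 40.5 and 44.2 RPKM in +/+, 14.4 and 16.9 in flox/flox and 23.0 and 22.5 in R270H/R270H. The groups did not overlap, but Mdm2 was not called (log2FC -1.38, s.e. 0.14, adjusted p=0.0648). Trp53inp1, a nuclear stress protein induced by p53, measured 46.5 and 51.6 RPKM in +/+ and 3.34 and 8.17 in flox/flox, and was not called (adjusted p=0.0807). Mdm4, the non-catalytic partner of Mdm2, was 30.2 and 31.8 RPKM in +/+ and 4.76 and 16.2 in flox/flox (adjusted p=0.184). Cdkn2a, which encodes the Mdm2 inhibitor p19Arf and the cyclin-dependent kinase inhibitor p16Ink4a, stood on the other side. It measured 3.77 and 2.85 RPKM in +/+, 44.1 and 10.9 in flox/flox and 5.47 and 9.64 in R270H/R270H. Both flox/flox libraries were above all others, but not close to each other, and the adjusted p was 0.154.

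Of the 19 arrest and stress targets tested, 5 fell, against 0.475% of all genes tested. Zmat3, an RNA-binding zinc finger protein, measured 39.2 and 42.2 RPKM in +/+ and 4.796 and 4.004 in flox/flox, a 9.24-fold fall (log2FC -2.95, s.e. 0.14, adjusted p=0.0243, or 0.0626 with length and GC content fitted out). Phlda3, a repressor of Akt signaling, measured 29.6 and 32.8 RPKM against 4.16 and 2.99, an 8.72-fold fall (log2FC -2.82, s.e. 0.18, adjusted p=0.0354). In both genes the flox/flox values were close to those of R270H/R270H organoids, at 6.99 and 6.81 RPKM for Zmat3 and 3.77 and 5.06 for Phlda3. Ephx1, the microsomal epoxide hydrolase, measured 145 and 180 RPKM in +/+, 6.93 and 9.19 in flox/flox and 13.3 and 14.2 in R270H/R270H, and fell 20.1-fold (log2FC -4.17, s.e. 0.20, adjusted p=0.0243). 9030617O03Rik measured 28.3 and 33.7 RPKM in +/+ and stood at the floor in the 4 libraries of the other genotypes, a fall of at least 31.0-fold (log2FC -3.99, s.e. 0.15, adjusted p=0.0243). Ddit4l, an inhibitor of mTOR signaling, measured 9.17 and 10.98 RPKM in +/+ and 1 and 1.27 in flox/flox (log2FC -2.37, s.e. 0.20, adjusted p=0.0446, or 0.0538 with length and GC content fitted out). In that corrected fit the p53 lists held 6 calls rather than 8.

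Cdkn1a, which encodes the cell cycle inhibitor p21, measured 110.0 and 122 RPKM in +/+, 11.8 and 27.0 in flox/flox and 31.9 and 29.5 in R270H/R270H. Each flox/flox library was at least 4-fold below each +/+ library, but the pair differed from each other by more than 2-fold and Cdkn1a was not called (log2FC -2.62, s.e. 0.41, adjusted p=0.0901). Sesn2, a sestrin that restrains mTORC1, was 8.01 and 8.53 RPKM in +/+ and 1.59 and 3.04 in flox/flox (adjusted p=0.105). Btg2, an antiproliferative protein, was 36.9 and 36.6 against 15.9 and 21.9 (adjusted p=0.112). A few targets lay the other way. Sfn, the 14-3-3σ protein that holds Cdk1 in the cytoplasm, measured 16.9 and 15.1 RPKM in +/+ and 28.6 and 32.7 in flox/flox (adjusted p=0.0906), and Ddit4, a stress-induced mTORC1 inhibitor, 51.6 and 42.3 against 74.2 and 118 (adjusted p=0.152). For Gadd45a, Sesn1 and Plk3 the groups overlapped.

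**Figure D3:**
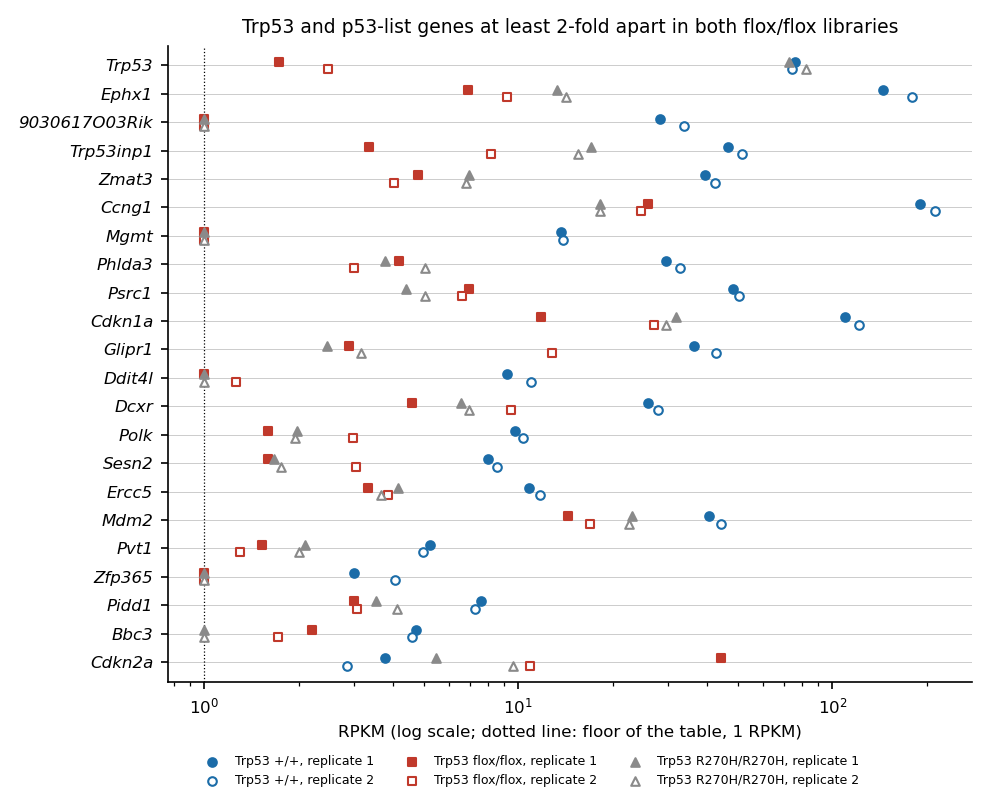
RPKM on a log axis for Trp53 and the genes of the p53 lists that met the 2-fold rule, with 1 point per library and the mutant R270H/R270H libraries in grey. Trp53 drops in flox/flox only, 20 list genes lie at least 2-fold lower in both flox/flox libraries, and Cdkn2a lies higher.

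All 7 repair targets tested lay lower in both flox/flox libraries, and 1 was called. Over all genes tested 33.6% lay lower and 0.475% were called lower. Mgmt, which removes alkyl groups from guanine, measured 13.7 and 13.9 RPKM in +/+ and stood at the floor in both flox/flox and both R270H/R270H libraries, a fall of at least 13.8-fold (log2FC -2.89, s.e. 0.16, adjusted p=0.0265). Polk, a translesion DNA polymerase, was 9.77 and 10.3 RPKM in +/+ and 1.60 and 2.97 in flox/flox (adjusted p=0.0865), and Ercc5, the XPG nuclease of excision repair, 10.8 and 11.7 against 3.32 and 3.85 (adjusted p=0.0668). Xpc and Ddb2, which recognize damage, differed less, at 10.00 and 10.2 against 5.82 and 7.38 RPKM and at 6.19 and 6.18 against 3.85 and 4.49.

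The apoptosis targets differed less than the arrest targets. Of 10 tested, 0 were called, 8 lay lower in both flox/flox libraries and 2 met the 2-fold rule. Over all genes tested 0.475% were called lower, 33.6% lay lower and 3.35% met the 2-fold rule in the lower direction. Bbc3, the BH3-only protein Puma, was 4.72 and 4.59 RPKM in +/+ and 2.203 and 1.72 in flox/flox, and Pidd1, a scaffold of caspase-2, 7.60 and 7.27 against 3.001 and 3.07. Bax, the effector of mitochondrial permeabilization, was 73.9 and 78.7 against 61.7 and 36.4 RPKM. The adjusted p-values were 0.120 for Bbc3, 0.0865 for Pidd1 and 0.238 for Bax. Apaf1, the core of the apoptosome, overlapped between the groups, and Fas was under 4 RPKM throughout. Whether apoptosis and arrest targets differed from each other was not tested. Among 9 other targets tested, Psrc1, a spindle protein, fell from 48.4 and 50.3 RPKM to 6.99 and 6.63 (log2FC -2.69, s.e. 0.12, adjusted p=0.0243). It was 4.37 and 5.03 RPKM in R270H/R270H. Dcxr, a sugar reductase, was 25.8 and 27.8 RPKM in +/+ against 4.59 and 9.50 in flox/flox, and Pvt1, a noncoding RNA next to Myc, 5.24 and 4.97 against 1.53 and 1.30.

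The R270H/R270H libraries allow the null and the missense genotype to be set side by side. The comparison of flox/flox with R270H/R270H uses the same flox/flox libraries, so it is not independent of the one above. Over all genes tested it gave 48 calls higher in flox/flox (0.496%) and 76 lower (0.785%). Of the 54 genes of the p53 lists without Trp53, 0 were called in either direction, the median difference was 0.04 on the log2 scale, 19 lay above and 17 below both R270H/R270H libraries, and over all genes tested these shares were 32.3% and 34.6%. Trp53 itself was called lower in flox/flox than in R270H/R270H (adjusted p=0.0320). Of the 54 autosomal calls against +/+, 6 were called higher in flox/flox than in R270H/R270H and 7 lower. Among the 41 called lower, 37 also had a lower mean in R270H/R270H than in +/+. Among the 13 called higher, 9 had a higher mean there. Both comparisons share the +/+ libraries, so this overlap is not independent. A p above the threshold does not show that the genotypes had the same levels. Gdf15, a secreted stress cytokine, was 15.9 and 15.0 RPKM in +/+, 4.30 and 7.89 in flox/flox and at the floor in both R270H/R270H libraries (adjusted p=0.0852 for flox/flox against R270H/R270H).

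Outside the p53 lists, antimicrobial genes of Paneth cells made up the group with the most calls among those examined. Paneth cells sit at the base of small intestinal crypts and secrete α-defensins, lysozyme and other antimicrobial proteins. All 15 α-defensin genes tested, a family of 29 in the table that was chosen after the values were seen and in which 4 predicted genes (Gm10104, Gm14851, Gm15284 and Gm15315) were counted for their place in the same cluster on chromosome 8, lay lower in both flox/flox libraries. Of these 15, 9 fell and 14 met the 2-fold rule, and the median log2FC was -2.94. Over all genes tested 0.475% fell, 33.6% lay lower in both flox/flox libraries and 3.35% met the 2-fold rule in the lower direction. The α-defensin genes are close copies of each other in a single cluster, and how reads that match several copies were counted is not given in the sources used here. The values of single copies are therefore uncertain, and the genes are not independent. Several promoters of the cluster carry the letters that Tcf proteins, the DNA-binding partners of β-catenin, recognize. ATCAAAG, or CTTTGAT on the other strand, was found at 2 or more places in all 5 windows available for the tested genes and in 0.1% of all windows. These were the windows of Defa2, Defa20, Defa21, Defa22 and Defa23, of which only Defa23 was called. Over all genes called lower, 1 of 30 windows (3.33%) held the letters, against 3.73% of all windows. Whether the letters bear on the fall was not tested. Over the 16 windows of the whole family, 13 (81.2%) held the letters and 9 (56.2%) held them at 2 or more places. The 250 bases before the start are printed for Defa23, which had the most negative log2FC of the family, and Defa2, which had the least negative, at chr8:21054790-21055039 and chr8:21378267-21378516 (plus strand, GRCm38.p6), with these letters in capitals.
Defa23: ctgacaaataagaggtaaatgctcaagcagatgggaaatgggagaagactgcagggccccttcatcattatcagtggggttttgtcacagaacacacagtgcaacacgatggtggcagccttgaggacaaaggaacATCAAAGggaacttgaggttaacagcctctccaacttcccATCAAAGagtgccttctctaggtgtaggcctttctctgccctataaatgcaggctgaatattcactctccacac
Defa2: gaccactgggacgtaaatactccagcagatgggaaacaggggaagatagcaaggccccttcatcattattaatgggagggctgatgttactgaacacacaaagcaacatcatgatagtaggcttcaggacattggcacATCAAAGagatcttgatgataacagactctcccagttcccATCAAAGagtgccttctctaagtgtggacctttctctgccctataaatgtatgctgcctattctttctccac
The 2 matches lay 40 bases apart in each of the 5 windows. The aligned windows of Defa2, Defa20, Defa21 and Defa22 were each 64.1% identical to that of Defa23. Their matches lay at the same places, so the 5 windows are not independent.

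Defa23 measured 426 and 338 RPKM in +/+, 23.0 and 22.9 in flox/flox and 41.1 and 58.0 in R270H/R270H, a 16.7-fold fall in flox/flox (log2FC -3.99, s.e. 0.17, adjusted p=0.0243). Defa3 measured 411 and 318 RPKM in +/+ and 27.3 and 32.3 in flox/flox, a 12.2-fold fall (adjusted p=0.0265). Defa24 measured 410 and 323 RPKM in +/+ and 41.9 and 53.5 in flox/flox (adjusted p=0.0372). These were among the most abundant transcripts of +/+ organoids that fell. Defa5 differed from them in R270H/R270H. It measured 91.9 and 69.4 RPKM in +/+, 11.4 and 7.99 in flox/flox and 155 and 130 in R270H/R270H, and was called lower in flox/flox than in either of the other genotypes (adjusted p=0.0433 and 0.0320). Defa21 and Defa22 were also higher in R270H/R270H than in +/+, at 88.8 and 79.8 against 25.8 and 20.4 RPKM and at 46.7 and 44.8 against 11.6 and 9.50. In flox/flox they were at 6.61 and 3.77 and at 3.23 and 3.21 RPKM. Neither was called against +/+ (adjusted p=0.0864 and 0.0744), and both were called lower than in R270H/R270H (adjusted p=0.0371 and 0.0320).

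The other genes of the Paneth cell list moved by different amounts. Ang4, an antimicrobial ribonuclease, was 152 and 136 RPKM in +/+ and 23.9 and 11.1 in flox/flox (adjusted p=0.0793), and Lyz1, lysozyme, 408 and 315 against 135 and 99.8 (adjusted p=0.0865). Mmp7, the protease that activates α-defensins, was 624 and 485 RPKM in +/+ and 351 and 397 in flox/flox (adjusted p=0.194). Of the 12 genes in the Paneth cell list, which holds 6 of the α-defensins, 4 were called lower, 11 lay lower in both flox/flox libraries and 9 met the 2-fold rule. Over all genes tested these shares were 0.475%, 33.6% and 3.35%. Guca2b overlapped between the groups.

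The Reg lectins, secreted C-type lectins of which Reg3b and Reg3g kill bacteria, were low in flox/flox. Reg3b fell from 49.6 and 39.9 RPKM to 1 and 2.78 (log2FC -4.05, s.e. 0.36, adjusted p=0.0488, or 0.0555 with length and GC content fitted out) and Reg1 from 10.5 and 14.2 to the floor in both libraries, a fall of at least 12.3-fold (adjusted p=0.0433). Reg3g was 111 and 97.9 RPKM in +/+ and 1.52 and 7.88 in flox/flox (adjusted p=0.0864). All 3 stood at the floor in both R270H/R270H libraries. They are close relatives, so reads may have been split between them. Of 7 goblet cell genes tested 3 lay below both +/+ libraries, 2 above and 1 was called. Over all genes tested 33.6% lay below and 31.5% above. Fcgbp, a mucus protein, fell from 20.9 and 18.1 RPKM to 4.04 and 5.06 (log2FC -1.89, s.e. 0.16, adjusted p=0.0488), and Agr2, a disulfide isomerase needed for mucin, was 223 and 200 against 53.03 and 89.2 RPKM (adjusted p=0.105). Creb3l4, a transcription factor, and Galnt12, which starts O-glycans, lay above, at 3.93 and 2.57 against 5.75 and 6.49 RPKM and at 10.6 and 10.8 against 11.7 and 17.4. Muc2, which defines the goblet cell, was under 4 RPKM in all 4 libraries. Of 22 enterocyte genes only 7 were tested and 0 were called, with Alpi, the brush border phosphatase, at 4.86 and 10.7 RPKM in +/+ and at the floor in both flox/flox libraries (adjusted p=0.110).

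**Figure D4:**
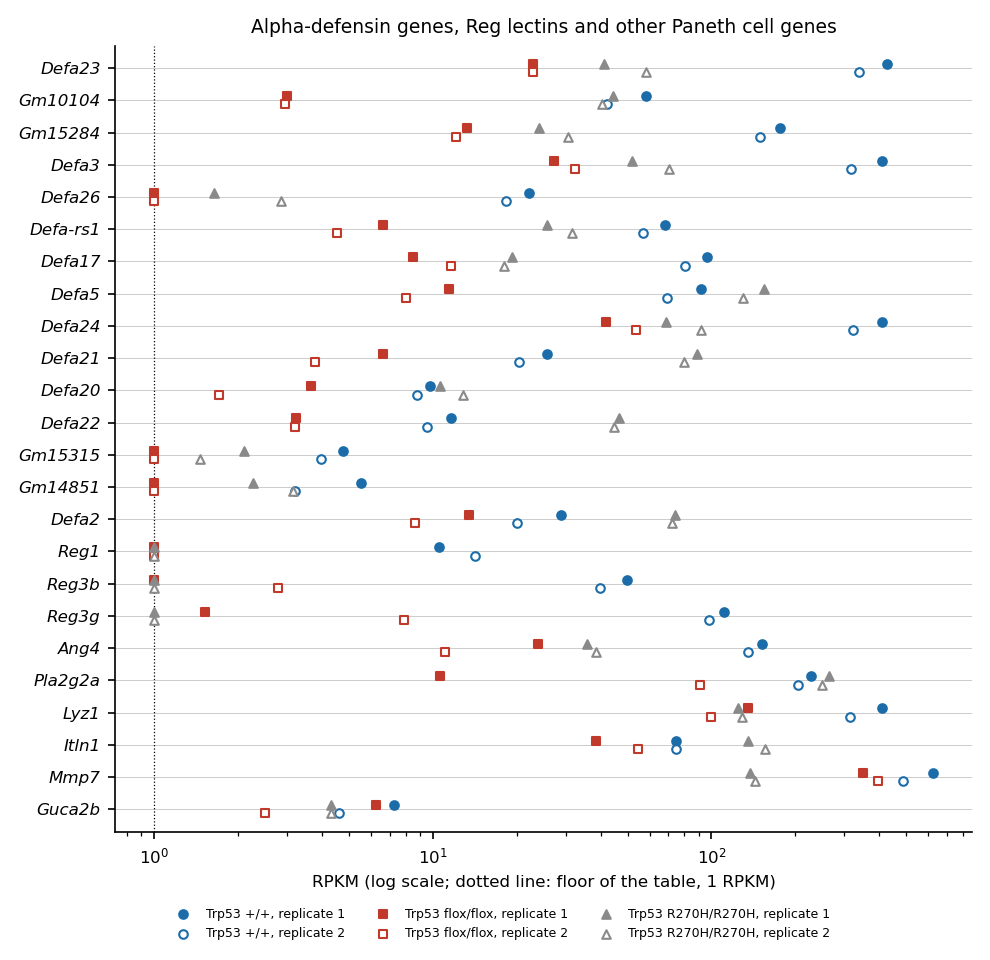
RPKM on a log axis for 15 α-defensin genes, 3 Reg lectins and 6 other genes of the Paneth cell list, with 1 point per library. For each α-defensin both flox/flox libraries lie below both +/+ libraries, and R270H/R270H lies above both +/+ libraries for Defa2, Defa5, Defa20, Defa21 and Defa22.

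Enzymes that oxidize, hydrolyse and conjugate drugs and steroids formed another group with calls, one also chosen after the values were seen. Of 48 Cyp, Ces, Gst, Sult and Ugt genes tested, 6 fell, 0 rose, 37 lay lower in both flox/flox libraries and 1 lay higher, with 23 meeting the 2-fold rule in the lower direction and a median log2FC of -1.22. Over all genes tested 0.475% fell, 33.6% lay lower in both libraries and 3.35% met the 2-fold rule in the lower direction. Cyp2c55, a cytochrome P450, fell from 61.5 and 108 RPKM to 4.24 and 3.74 (log2FC -4.05, s.e. 0.30, adjusted p=0.0392), and Cyp2c65 from 16.1 and 26.1 to 1.44 and 1 (adjusted p=0.0488, or 0.0557 with length and GC content fitted out). Ces2e, a carboxylesterase, measured 22.2 and 31.0 RPKM in +/+ and stood at the floor in both flox/flox libraries, a fall of at least 26.6-fold (adjusted p=0.0265). Its relatives Ces2a and Ces2g were at 66.8 and 78.9 against 1.98 and 6.92 RPKM and at 33.6 and 40.5 against 1.10 and 7.40, and were not called (adjusted p=0.0802 and 0.120). Copies within the Cyp2c and Ces2 families may share reads. Ugt2b34, a glucuronosyltransferase, fell from 143 and 149 RPKM to 56.2 and 54.6 (adjusted p=0.0488, or 0.0976 with length and GC content fitted out), and Cyp4b1 from 39.0 and 31.7 to 2.96 and 3.41 (adjusted p=0.0265). Of 22 glutathione transferase genes 16 lay lower and 0 were called. Gstm3 was 59.3 and 96.6 RPKM in +/+ against 4.75 and 14.8 in flox/flox, and Gsta3 100.03 and 128 against 1 and 22.3. Abcc2, the efflux pump that exports such conjugates, fell from 32.7 and 35.3 RPKM to 2.89 and 1.51 (log2FC -3.48, s.e. 0.25, adjusted p=0.0374), and it was 37.1 and 31.5 in R270H/R270H. Among 17 Nrf2 and glutathione genes 0 were called and 11 lay lower, with Nqo1, a quinone reductase, at 18.8 and 30.3 RPKM against 4.13 and 4.61 (adjusted p=0.0750).

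Further genes that fell had various functions. Cfb, complement factor B, fell from 25.3 and 24.3 RPKM to 7.16 and 7.42, Atg9b, an autophagy protein, from 48.9 and 55.4 to 15.4 and 14.5, and Cpm, carboxypeptidase M, from 20.1 and 18.6 to 5.18 and 5.51. Hdac11, a histone deacetylase, fell from 25.2 and 24.0 RPKM to 8.62 and 8.58, and Cirbp, a cold-inducible RNA-binding protein, from 60.4 and 54.1 to 18.9 and 19.5. In these 5 genes the flox/flox pair agreed closely, and the adjusted p-values lay between 0.0361 and 0.0440. The test favors genes in which the pair agrees, so the agreement is in part how they were picked. Cth, the cystathionine γ-lyase of cysteine synthesis, which was picked after its values were seen, fell 4.57-fold from 123 and 140 RPKM to 27.7 and 29.7 (adjusted p=0.0354).

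The 13 genes that rose belonged to no single list. Tgm1, the transglutaminase that crosslinks the cornified envelope of skin, measured 1.29 and 1.21 RPKM in +/+, 19.5 and 29.2 in flox/flox and 1.27 and 1.48 in R270H/R270H. Only the flox/flox libraries were above 2 RPKM, and the rise was 19.5-fold (log2FC 3.47, s.e. 0.24, adjusted p=0.0354). Krt80, a type II keratin, rose from 1.18 and 1.40 RPKM to 11.5 and 9.71 (log2FC 2.34, s.e. 0.19, adjusted p=0.0433), and was 1.72 and 1.75 in R270H/R270H. Both are best known from stratified epithelium. AI467606, an uncharacterized gene, rose from 1.03 and 1.12 RPKM to 12.9 and 10.9 (adjusted p=0.0361), and B3gnt3, a glycosyltransferase that extends O-glycans, from 8.28 and 8.998 to 37.7 and 38.6 (adjusted p=0.0300). Trip6, a LIM protein of focal adhesions, rose from 4.30 and 4.14 RPKM to 19.6 and 22.8, Cdc42ep5, an effector of Cdc42, from 13.1 and 11.2 to 36.8 and 39.0, and Jund, a subunit of AP-1, from 4.13 and 3.59 to 15.9 and 15.6. Fam111a, a protease that restricts virus replication, rose from 6.65 and 7.24 RPKM to 28.0 and 26.4, Cd209c, a C-type lectin, from 2.23 and 2.10 to 11.1 and 11.1, and Ndrg2 from 5.97 and 6.39 to 17.4 and 17.1. In R270H/R270H organoids Fam111a, Cd209c and Ndrg2 were at 19.7 and 20.5, 10.4 and 9.72, and 17.6 and 19.6 RPKM. AI467606 was at 6.79 and 6.25 RPKM there, Trip6 at 10.6 and 11.001 and B3gnt3 at 11.1 and 12.2. Cdc42ep5 was at 12.9 and 13.1 RPKM and Jund at 1.06 and 1.58.

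Mrpl34, Cox8a and Rnaseh2c, which also rose, encode subunits of larger complexes. Mrpl34, of the mitochondrial ribosome, rose from 8.30 and 8.71 RPKM to 44.3 and 39.3 (adjusted p=0.0300), Cox8a, of cytochrome c oxidase, from 69.4 and 72.1 to 275 and 257 (adjusted p=0.0354), and Rnaseh2c, of ribonuclease H2, from 5.76 and 4.75 to 24.8 and 21.3 (adjusted p=0.0433). In R270H/R270H they were at 3.71 and 6.58, 23.9 and 45.2, and 1.99 and 4.09 RPKM. Of the 13 genes that rose, 6 were in the shortest of the 5 length bins and 8 in the bin with the most GC, where flox/flox medians were 0.17 and 0.04 by length and 0.23 and 0.15 by GC for replicates 1 and 2. With length and GC content fitted out, Mrpl34, Cox8a and Rnaseh2c were still called, with log2FC of 1.98, 1.71 and 1.75, and Krt80, Trip6, Jund, Cdc42ep5 and Ndrg2 were not, with adjusted p from 0.0527 to 0.0630. Around them, 52 of 72 Mrpl and Mrps genes tested, a family picked after the values were seen, lay higher in both flox/flox libraries, against 31.5% of all genes tested, and 1 was called. Of 79 nuclear genes of oxidative phosphorylation 49 lay higher and 1, Cox8a, was called, with a median of 0.72 in replicate 1 and 0.13 in replicate 2. Cytosolic ribosomal protein genes had medians of 0.61 and -0.04 in replicates 1 and 2, with 32 of 77 above both +/+ libraries and 0 called.

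Cell cycle genes lay somewhat higher in flox/flox. By EdU labeling, a measure of proliferation, the paper found no significant difference among organoids of these genotypes. Of 30 mitosis genes 25 lay above both +/+ libraries, 0 lay below and 0 were called, with a median log2FC of 0.55. Cenpa, the centromeric histone, was 20.9 and 20.8 RPKM in +/+ and 60.1 and 48.3 in flox/flox (adjusted p=0.0750), and Cdc20, the activator of the anaphase-promoting complex, 33.0 and 32.3 against 83.3 and 66.4 (adjusted p=0.0851). Top2a and Mki67, long transcripts, were lower in replicate 1 and higher in replicate 2 than in +/+, with Mki67 at 64.1 and 65.8 RPKM in +/+ and 33.3 and 94.0 in flox/flox. Of 31 DNA replication genes 23 lay above, 0 below and 0 were called (median 0.33), and Cdc6, which loads the Mcm helicase, was 8.86 and 8.69 RPKM against 16.1 and 15.6 (adjusted p=0.0865). Proteasome subunits (28 of 34 above, median 0.37), cholesterol synthesis (16 of 20, 0.42) and glycolysis (11 of 16, 0.51) also lay higher with 0 calls each, against 31.5% of all genes tested above both +/+ libraries.

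**Figure D5:**
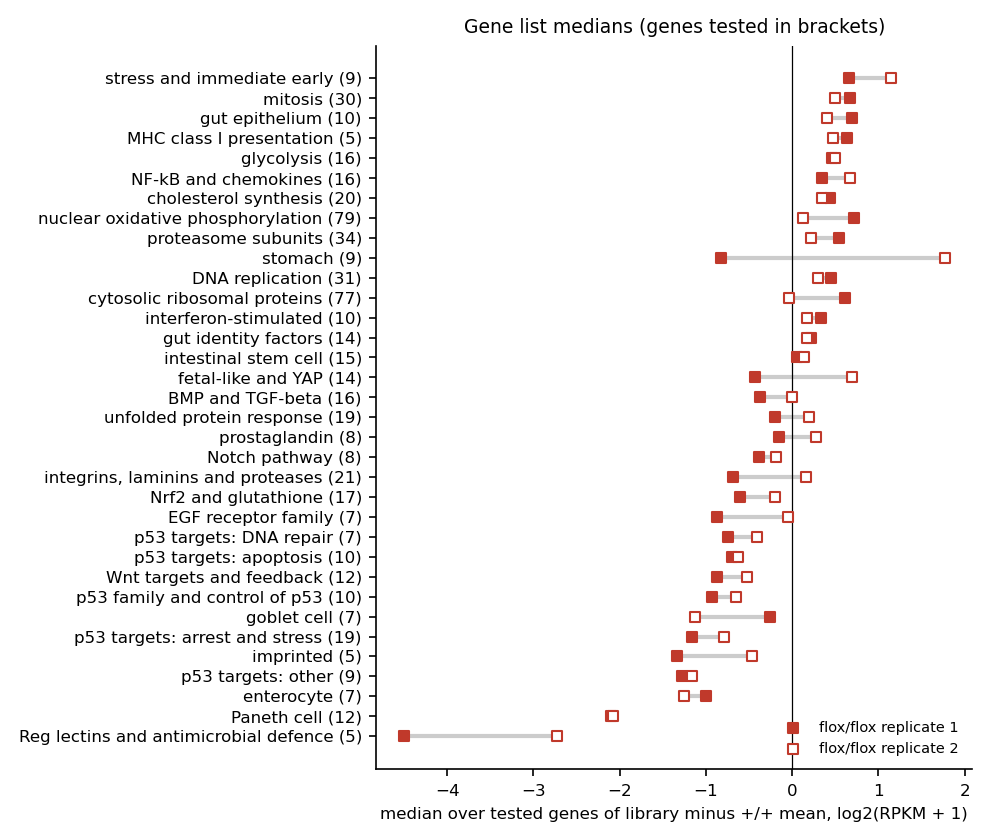
For each gene list with at least 5 tested genes, the median difference from the Trp53 +/+ mean in log2(RPKM + 1) is shown for flox/flox replicate 1 (filled) and replicate 2 (open). Reg lectins, Paneth cell and p53 lists are negative in both libraries, and the stomach list differs most between the 2 libraries, at -0.83 and 1.77.

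Wnt target and feedback genes were not called, although 8 of 12 tested lay below both +/+ libraries and 2 above, with a median of -0.74. Over all genes tested these shares were 33.6% below and 31.5% above. Notum, a secreted enzyme that inactivates Wnt, was 82.3 and 78.9 RPKM in +/+, 8.52 and 21.5 in flox/flox and 113 and 121 in R270H/R270H (adjusted p=0.105 against +/+). Nkd1, an intracellular inhibitor, was 57.5 and 50.7 RPKM in +/+, 11.8 and 18.3 in flox/flox and 129 and 137 in R270H/R270H (adjusted p=0.0807). Nkd1 was called lower than in R270H/R270H (adjusted p=0.0371). Axin2, the scaffold often read as a measure of Wnt output, was 136 and 130 against 80.9 and 88.9 RPKM (adjusted p=0.112). Of 15 stem cell genes 6 lay above and 3 below with 0 calls. Lgr5, the crypt stem cell receptor, overlapped at 17.2 and 10.8 against 14.3 and 17.6 RPKM, and Smoc2 was 26.9 and 19.3 against 79.0 and 43.4 (adjusted p=0.145). Of the 14 fetal-like and YAP genes tested 5 lay above both +/+ libraries, 2 below and 0 were called. Ankrd1, a YAP target, was 1.65 and 1.35 RPKM in +/+ and 4.63 and 6.59 in flox/flox (adjusted p=0.105). Areg, a ligand of the EGF receptor, and Il1rn, an interleukin-1 antagonist, lay below, at 57.3 and 60.1 against 29.2 and 30.9 RPKM and at 49.4 and 63.3 against 22.1 and 36.6.

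The lists of NF-κB and chemokine, BMP and TGF-β, prostaglandin and stress genes held 0 calls. Of 16 NF-κB and chemokine genes 11 lay above and 2 below, with Cxcl16 at 10.2 and 10.9 RPKM in +/+ and 31.6 and 24.9 in flox/flox (adjusted p=0.0789) and Icam1, the leukocyte adhesion receptor, at 1.66 and 1.67 against 5.73 and 5.62 (adjusted p=0.0864). Among BMP and TGF-β genes Id1, a target of BMP, came nearest to a call, at 23.9 and 22.5 RPKM against 57.8 and 61.4 (log2FC 1.33, adjusted p=0.0517). Ptgs1, cyclooxygenase 1, was 5.33 and 7.92 RPKM in +/+, 27.0 and 26.4 in flox/flox and 18.6 and 18.1 in R270H/R270H (adjusted p=0.0695). Hspa1b, a heat shock protein, was 1.13 and 1.13 RPKM against 8.73 and 12.05 (adjusted p=0.0535) and stood at the floor in R270H/R270H. The lists of interferon-stimulated genes (5 of 10 above, 1 below), MHC class I presentation (4 of 5 above), the unfolded protein response (6 above and 4 below of 19), the EGF receptor family (4 of 7 below) and the Notch pathway (3 of 8 below) held 0 calls each. Beside all these counts, 31.5% of all genes tested lay above both +/+ libraries and 33.6% below. Among 5 imprinted genes tested, Peg3, a zinc finger gene expressed from the paternal allele, was 32.2 and 34.2 RPKM in +/+, 1 and 3.66 in flox/flox and 182 and 158 in R270H/R270H (adjusted p=0.0793 against +/+).

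A number of genes separated the 2 flox/flox libraries from each other. Replicate 1 was more than 2-fold above replicate 2 for 320 autosomal genes and more than 2-fold below for 832, whereas the +/+ pair differed by more than 2-fold for 9. For 2117 genes the flox/flox libraries lay on opposite sides of both +/+ libraries. The differences between 2 single libraries have no test. At one end, Wfdc2, a secreted protease inhibitor, was at the floor in replicate 1 and at 146 RPKM in replicate 2, with 2.98 and 2.89 in +/+. Spp1, osteopontin, was at the floor and at 75.2 RPKM, with 5.41 and 5.16 in +/+, and Gkn3, a gastrokine of the stomach, at the floor and at 67.6, with 11.4 and 8.16 in +/+. Other stomach genes, among them Gkn1, Tff1, Cldn18 and Aqp5, were at the floor in replicate 1 and at 10.6, 5.83, 7.27 and 18.9 RPKM in replicate 2. Of 9 stomach genes tested 0 were called, 8 overlapped between the genotypes and 1 lay below both +/+ libraries. Ctse, a protease of the stomach lining and the most abundant of them, went the other way, at 352 RPKM in replicate 1 and 129 in replicate 2, and Tff2, a trefoil peptide, was close in both at 3.64 and 3.40. The 14 stomach genes of the list summed to 368 and 271 RPKM in replicates 1 and 2 and to 264 and 246 in +/+. At the other end, Aim2, a DNA sensor, was 36.9 RPKM in replicate 1 and 1.65 in replicate 2, with 5.97 and 6.62 in +/+, and Tm4sf4, a tetraspan membrane protein, 89.8 and 4.89, with 48.1 and 72.9 in +/+. None of these genes was called, and they show in which genes a mean over the flox/flox pair stands for neither library.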

How the data were processed

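RNA was measured in 6 libraries from tumor-derived organoids of 3 genotypes. Per the methods, alignment to mm10 and the calculation of RPKM were done by the authors in StrandNGS, and the table used here holds RPKM values. The version, annotation and treatment of reads that match several places are not given in the sources used here. No deposited value is under 1, which was treated as a floor. Depth, read from the steps of 1 read in short RNA genes, was about 47.0, 46.9 and 47.4 M reads for both +/+ libraries and flox/flox replicate 2, and could not be read reliably in flox/flox replicate 1. At 47.0 M reads, 4 RPKM is 188 reads per kb.

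Groups came from the sample titles. Genes that reached 4 RPKM in 1 or more of the 4 libraries compared were fitted on log2(RPKM + 1) with limma 3.58.1 in R 4.3.3 (lmFit, eBayes with trend=TRUE, two-sided), with Benjamini-Hochberg adjustment over all 9681 genes at 0.05. The flox/flox and R270H/R270H libraries were compared in the same way. The step across genes was tested on simulated libraries with the spread of each genotype. There, unchanged genes made up more of the calls than the nominal rate, and small shifts were not called. The 2-fold rule is given beside the calls, but all 54 autosomal calls met it, so it removed none of them. Gene positions and promoters are from RefSeq, and the transcript lengths and GC content used for the bins and the correction are from GENCODE M21, both GRCm38. Members and gene lists were chosen with earlier results of these data known. Genes are named if they are Trp53 or lie within 200 kb of it, belong to a list, are among the 20 called genes with the largest or the 20 with the smallest log2FC, or are among the 8 at either end of the ratio between the flox/flox libraries. The others are said to be chosen after their values were seen. Alternatives in scaling, filter, pseudocount, model, samples and corrections are given below.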

Additional observations from a re-analysis of the deposited data

How the results depend on the processing

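The 54 autosomal genes kept the direction of their change under all 17 alternatives, as far as they were tested. The call rule, which allows no overlap, fixed this direction in advance except where values were rescaled or corrected. The number of calls depended on which libraries set the spread. Against 13 genes higher and 46 lower, with 8 members of the p53 lists lower, limma called 459, 680 and 27 with all 6 libraries in the fit, and 34, 102 and 13 with weights by genotype. Leaving out each library in turn gave 0 to 3313 genes higher, 0 to 3649 lower and 0 to 41 members of the p53 lists lower. The value 0 was reached without either +/+ library, where the adjusted p of Trp53 was 0.267 and 0.276. Without a flox/flox library the remaining one was assumed to vary like the +/+ pair, and 9 named genes that had not been called were called on the other side. Over these fits, the log2FC ranged from -1.46 to 2.38 for Aim2, from -0.38 to 1.06 for Ctse, from -0.94 to 0.53 for Mki67, from -0.55 to 0.25 for Top2a, from -2.41 to 2.69 for Gkn3, from -0.24 to 0.28 for Plk3, from -1.65 to 3.60 for Spp1, from -1.31 to 2.17 for Tek and from -0.98 to 5.23 for Wfdc2. The replicate number as a block gave 165 genes higher, 300 lower and 22 members of the p53 lists lower. Deviations of same-numbered libraries correlated at 0.12 over 2 pairs, and nothing in the labels says that a number marks a shared mouse or day, so the numbers were not taken to pair the libraries. With no filter the trend could not be fitted, so 2 choices changed together, and 14 genes higher and 56 lower were called, among them 2 members of the p53 lists and 6 of the 54 genes. The cause was not tested. Upper-quartile scaling moved the median log2FC to -0.11 and kept 49 of the 54 calls. Pseudocounts of 0.1 or none kept 39, and so did a filter on any value above the floor. Values under 1 RPKM are unknown, and what 2 libraries per genotype cannot resolve is the spread of the flox/flox organoids. The causes of these differences between settings were not tested beyond the construction of each.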
